A study of Mus musculus with 24 samples.

Results

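Aminoacyl-tRNA synthetases are the enzymes that join each amino acid to its tRNA, and this account follows their mRNA in the livers of mice fed 4 diets. The genes were taken from a list of 36 symbols, 20 for enzymes of the cytosol (including Gars and Kars, which serve both cytosol and mitochondria) and 16 for enzymes of the mitochondria. They were matched to the array by the gene symbol of the platform annotation. The list was chosen with earlier results of these data known. A probe set was found for 35 of the 36, on 72 probe sets in all. The expression of Dars was not analysed here, and Mars carries the symbol Mars1 in the annotation. Mars2 lay below the filter on low values in every array. The remaining 34 genes, 19 cytosolic and 15 mitochondrial, were tested among 13384 genes, and each of the 34 was above the filter level in all 24 arrays.

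The livers came from 24 female NMR-1 mice, which were 8 weeks old at the start and received 1 diet for 2 weeks, 6 mice per diet. All mice had been raised on the mouse pellet diet, and 1 group stayed on it. The chimpanzee diet was made of fruit, vegetables and yogurt, the cafeteria diet of cooked meals prepared for people, and the fast food diet of fast food alone. The cafeteria and fast food diets are called the human diets when pooled. RNA was processed in 2 batches with 3 mice of each diet in each, and every liver was measured on 1 Affymetrix array. Whole liver was measured, so fewer cells of a type and less RNA per cell cannot be told apart.

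A synthetase recognises one amino acid and the matching tRNAs, and spends ATP to couple them before the ribosome can use them. Cytosolic and mitochondrial enzymes are mostly products of separate genes, and the cytosolic enzymes for several amino acids assemble with scaffold proteins into a multi-synthetase complex. When amino acids run short, uncharged tRNA activates the kinase GCN2, translation of the transcription factor ATF4 increases, and many cytosolic synthetase genes are known targets of ATF4. The liver, which makes most plasma proteins, charges tRNA at a high rate. These statements are background and not results of the arrays.

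The promoters of Tars, Gars and Mars1 are shown because these genes were lower under the human diets than on pellet, as described with the values, and because ATF4 binds a composite element whose core reads TGATGNAA. The RefSeq promoter table (build GRCm38.p6) gives 250 bases before and 50 after the start of a gene, and held 27 of the 36 listed genes. Lars, Cars and Nars, which were lower as well, were not among the 27. Dars and Mars2, whose expression was not tested, were among the 27. The core, searched on both strands, was found in 5 of the 27 genes (18.5%). In the whole table it was found in 1304 of 32851 promoters (3.97%), counted by promoter and not by gene. All 5 belonged to cytosolic or dual enzymes (Aars, Gars, Iars, Tars and Yars, 5 of 13 such genes), and 0 of 14 mitochondrial genes held it. At the gene level Aars, Iars and Yars had no adjusted p below 0.05 in any comparison of diets. In Tars (chr15:11399609-11399908, minus strand) the match began 15 bases before the start site, and in Gars (chr6:55037751-55038050, plus strand) it began 30 bases before it. Mars1 (chr10:127311737-127312036, minus strand) had no match in this window. A match is a string of letters and not a measured binding site. Sequences run 5′ to 3′ along the gene, with the match in capitals.
Tars: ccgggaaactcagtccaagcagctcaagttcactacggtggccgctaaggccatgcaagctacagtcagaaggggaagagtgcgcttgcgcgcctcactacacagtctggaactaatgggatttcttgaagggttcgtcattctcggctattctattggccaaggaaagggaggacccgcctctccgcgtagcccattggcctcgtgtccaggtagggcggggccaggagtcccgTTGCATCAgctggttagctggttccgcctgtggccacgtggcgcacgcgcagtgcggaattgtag
Gars: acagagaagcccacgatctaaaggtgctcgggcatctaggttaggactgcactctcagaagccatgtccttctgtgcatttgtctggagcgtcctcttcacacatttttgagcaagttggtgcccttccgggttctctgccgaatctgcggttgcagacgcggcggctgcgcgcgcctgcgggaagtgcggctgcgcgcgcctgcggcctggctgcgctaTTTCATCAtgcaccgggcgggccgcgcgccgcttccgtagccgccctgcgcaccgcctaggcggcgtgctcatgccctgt
Mars1: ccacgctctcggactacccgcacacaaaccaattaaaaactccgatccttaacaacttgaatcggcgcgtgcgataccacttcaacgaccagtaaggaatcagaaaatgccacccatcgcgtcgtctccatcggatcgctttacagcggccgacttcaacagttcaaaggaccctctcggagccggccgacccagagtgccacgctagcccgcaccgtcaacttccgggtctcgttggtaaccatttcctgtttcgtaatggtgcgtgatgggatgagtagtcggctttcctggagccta

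The first question was whether the level of these genes differed among the 4 diets. Across the diets 2 of the 34 genes passed an adjusted p of 0.05 (called hereafter; limma's moderated F with batch as a covariate, Benjamini-Hochberg over all genes), Tars with an adjusted p of 0.000143 and Lars with 0.0178. The background was 9% of all genes called, against 2 of 34 here. At an unadjusted p below 0.05 there were 13 of 34 (38.2%), compared with 20.8% of all genes. The diet with the highest mean was the pellet diet for 12 of 19 cytosolic genes (63.2%), compared with 29.9% of all genes tested. For the mitochondrial genes the highest mean fell to the fast food diet in 9 of 15 (60.0%), compared with 21.8% of all genes, and to the pellet diet in 5. The cafeteria diet had the lowest mean for 9 of 19 cytosolic genes and 6 of 15 mitochondrial ones, compared with 21.8% of all genes. The chimpanzee diet had it for 5 cytosolic and 7 mitochondrial genes, compared with 32.2% of all genes.

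The comparison of the human diets with the pellet diet, which sets 12 mice against 6, gave the highest count of called genes. Of the 34 genes, 6 were called and all 6 were lower under the human diets: Tars, Lars, Cars, Nars, Mars1 and Gars. The share of all genes called in this comparison was 4.98%, and 2.82% were called lower. A sign of RNA quality moved with the diets as well: the 3′ minus 5′ difference of the beta-actin control probe sets averaged 0.754 ± 0.135 (SD, n = 6) on pellet and 0.853 ± 0.108 (SD, n = 12) under the human diets. With it as a covariate only Tars was called (-0.91, adjusted p = 0.000692), and the other 5 had adjusted p-values from 0.0547 to 0.175. All 6 encode cytosolic enzymes, Gars being the dual one, and 0 of 15 mitochondrial genes were called (limma). At an unadjusted p below 0.05, 1 mitochondrial gene was higher and 1 lower (13.3% of the 15), compared with 14.5% of all genes. Over the 19 cytosolic genes the median log2 difference was -0.19, with 15 of 19 below 0. Over the 15 mitochondrial genes it was -0.02 with 8 of 15 below 0, and over all 13384 genes it was -0.01 with 52.3% below 0. Whether the cytosolic and mitochondrial genes differ from each other was not tested.

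**Figure D1:**
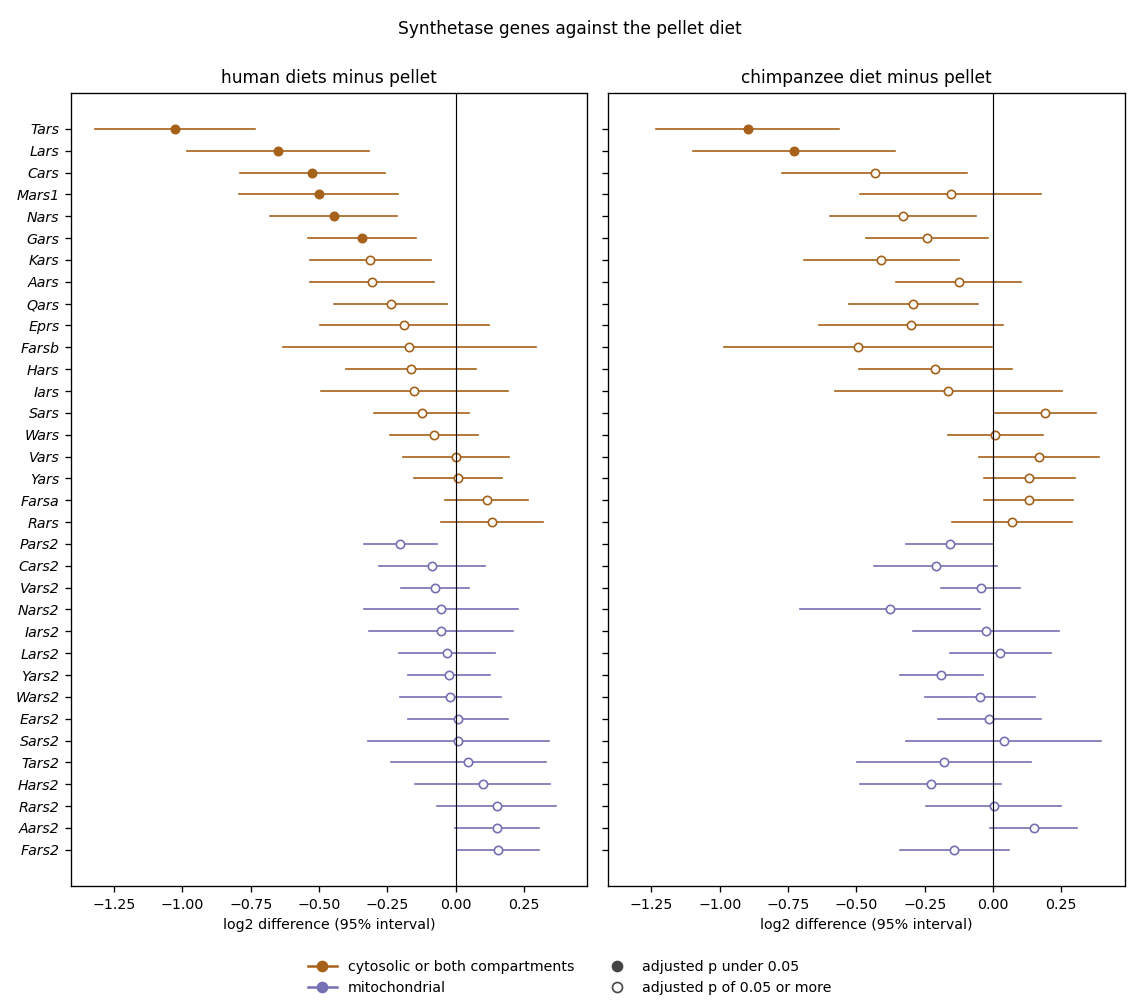
Log2 difference from the pellet diet, with its 95% interval, for 19 cytosolic or dual (brown) and 15 mitochondrial (purple) synthetase genes, for the human diets in the left panel and the chimpanzee diet in the right. Filled points were called; 6 cytosolic genes on the left and 2 on the right are filled, and both panels share the same 6 pellet mice.

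Tars, the threonyl-tRNA synthetase, changed the most. Its log2 expression ran from 7.82 to 8.73 (median 8.11) in the 6 pellet mice. It ran from 6.57 to 7.50 (median 6.97) on the cafeteria diet and from 6.58 to 7.64 (median 7.43) on the fast food diet. On the chimpanzee diet the 6 values lay between 6.49 and 7.64, with a median of 7.50. Every pellet mouse was therefore above every mouse of the other 3 diets. The share of all genes separated in this way is not given here. The human diets were lower than pellet by a log2 difference of -1.03 (SE 0.14, 2.04-fold, adjusted p = 0.000121), at -0.98 in batch 1 and -1.07 in batch 2. Its call held with each of the 18 mice left out in turn, the log2 difference lying between -1.10 and -0.95. Its mitochondrial partner Tars2 had a log2 difference of 0.05 (SE 0.14, adjusted p = 0.97). Another kept probe set of Tars2 gave -0.23 (SE 0.13, adjusted p = 0.54).

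Lars, the leucyl-tRNA synthetase and a member of the multi-synthetase complex, showed the next largest difference. Pellet mice had log2 values from 5.37 to 6.51 (median 5.74), cafeteria mice from 3.98 to 5.63 (median 5.30) and fast food mice from 4.78 to 5.78 (median 5.35). Chimpanzee diet mice ran from 4.51 to 5.84 with a median of 5.18. The pooled ranges overlap, and the mean of batch 2 was below that of batch 1 under every diet. In batch 1 the lowest pellet mouse (5.83) was above the highest human diet mouse (5.78), while in batch 2 a cafeteria mouse at 5.52 lay within the pellet range of 5.37 to 5.66. The fitted log2 difference between human diets and pellet was -0.65 (SE 0.16, 1.57-fold, adjusted p = 0.0194), at -0.65 in both batches. Without pellet mouse 1 of batch 1 the difference was -0.58 (adjusted p = 0.0721), and without pellet mouse 1 of batch 2 it was -0.62 (adjusted p = 0.0562). Lars2, the mitochondrial enzyme, differed by -0.03 (SE 0.08, adjusted p = 0.96).

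Cars, which charges tRNA with cysteine, ranged from 5.64 to 6.38 (median 5.91) on pellet. On the cafeteria diet it ranged from 4.97 to 5.71 (median 5.41), on the fast food diet from 4.99 to 5.74 (median 5.43), and on the chimpanzee diet from 4.93 to 5.94 (median 5.53). A few human diet mice thus reached the lowest pellet values. The log2 difference of the human diets was -0.52 (SE 0.13, 1.44-fold, adjusted p = 0.0185), with -0.67 in batch 1 and -0.38 in batch 2. It was no longer called without pellet mouse 1 of batch 1 (-0.48, adjusted p = 0.0659), pellet mouse 3 of batch 1 (-0.49, adjusted p = 0.0617) or pellet mouse 2 of batch 2 (-0.44, adjusted p = 0.0705). A second kept probe set of Cars showed no such difference (-0.00027, SE 0.08, adjusted p = 0.9995). It lay near the filter level, with a mean of 3.10 and 9 arrays above that level, and its correlation with the first was -0.06. Cars2 in mitochondria differed by -0.09 (SE 0.09, adjusted p = 0.84). Its other kept probe sets gave -0.22 (SE 0.09, adjusted p = 0.21) and 0.02 (SE 0.12, adjusted p = 0.99).

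Nars, the asparaginyl-tRNA synthetase, lay between 8.04 and 8.77 (median 8.32) on pellet. The cafeteria mice lay between 7.34 and 8.13 (median 7.89), the fast food mice between 7.50 and 8.23 (median 7.92), and the chimpanzee diet mice between 7.58 and 8.45 (median 8.03). Human diets and pellet overlapped only between 8.04 and 8.23. The log2 difference was -0.45 (SE 0.11, 1.36-fold, adjusted p = 0.0215), and a second probe set of the gene gave -0.42 (adjusted p = 0.0104). Nars lost its call without pellet mouse 1 of batch 1 (-0.38, adjusted p = 0.0856), pellet mouse 1 of batch 2 (-0.44, adjusted p = 0.0515) or pellet mouse 3 of batch 2 (-0.40, adjusted p = 0.0704). For the mitochondrial Nars2 the difference was -0.05 (SE 0.14, adjusted p = 0.96).

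Mars1, the methionyl-tRNA synthetase of the complex, and Gars, the glycyl-tRNA synthetase of both compartments, passed the threshold narrowly. Mars1 had log2 values from 6.14 to 7.14 (median 6.28) on pellet, 5.05 to 6.28 (median 6.12) on the cafeteria diet, 5.43 to 6.12 (median 6.06) on the fast food diet and 5.77 to 6.85 (median 6.32) on the chimpanzee diet. The highest of its 24 values belonged to pellet mouse 1 of batch 1. The log2 difference between human diets and pellet was -0.50 (SE 0.14, 1.42-fold, adjusted p = 0.0411), and leaving out any one of 13 of the 18 mice ended the call, with adjusted p-values up to 0.155 and differences from -0.60 to -0.39. Gars ranged from 5.34 to 6.50 (median 5.77) on pellet, from 4.90 to 5.81 (median 5.61) on the cafeteria diet, from 5.02 to 6.09 (median 5.49) on the fast food diet and from 5.17 to 6.10 (median 5.59) on the chimpanzee diet. These ranges overlap widely, and pellet and human diets overlapped within each batch too (5.99 to 6.50 against 5.65 to 6.09 in batch 1, and 5.34 to 5.56 against 4.90 to 5.49 in batch 2). The log2 difference was -0.34 (SE 0.10, 1.27-fold, adjusted p = 0.0406), and 11 of the 18 omissions ended the call, with adjusted p-values up to 0.152 and differences from -0.38 to -0.27. In both genes the weakest value came without pellet mouse 1 of batch 1.

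**Figure D2:**
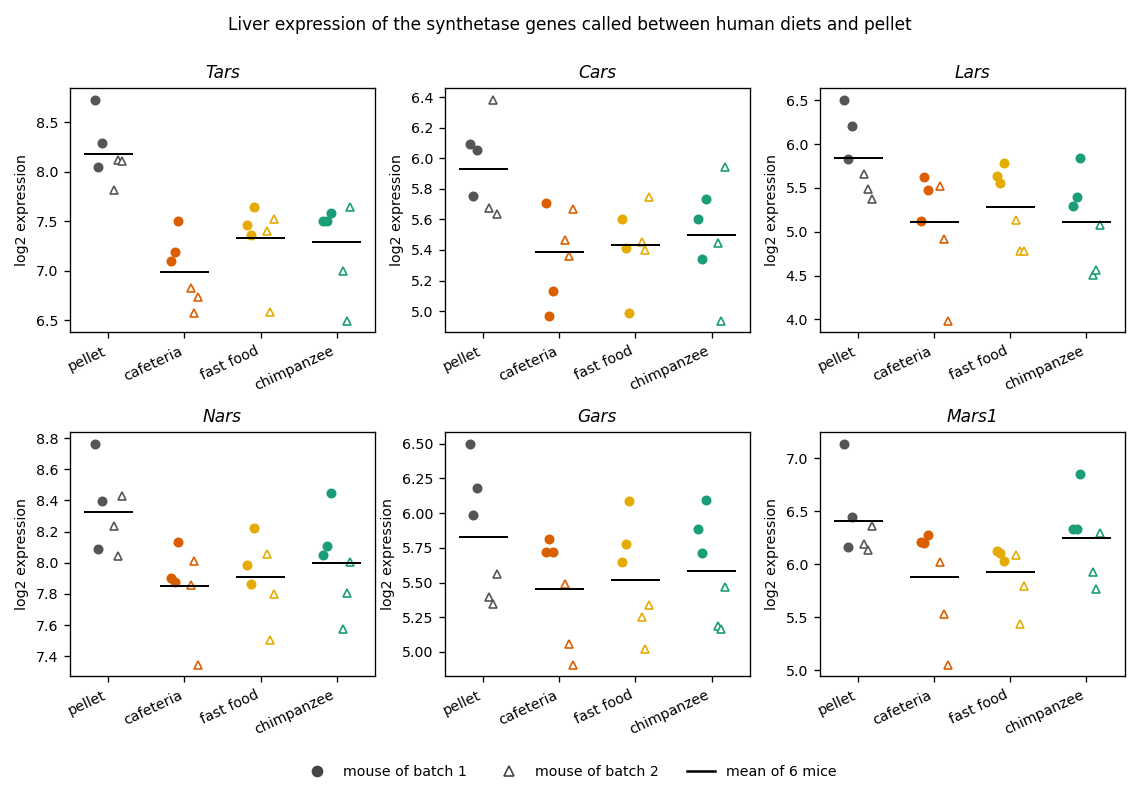
Log2 expression of the 6 called genes in every mouse by diet, with filled circles for batch 1, open triangles for batch 2 and a line at the mean of 6 mice. In Tars all 6 pellet mice (7.82 to 8.73) lie above all mice of the other diets, whose highest value is 7.64. The 6 genes were picked by their difference from pellet in these same mice.

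The count of 6 rested on the pellet mice more than on the others. It fell to 1 (Tars) without pellet mouse 1 of batch 1, to 2 without pellet mouse 1 of batch 2, and to 3 without pellet mouse 3 of either batch. Omitting any single human diet mouse left 4 to 6 called.

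**Figure D3:**
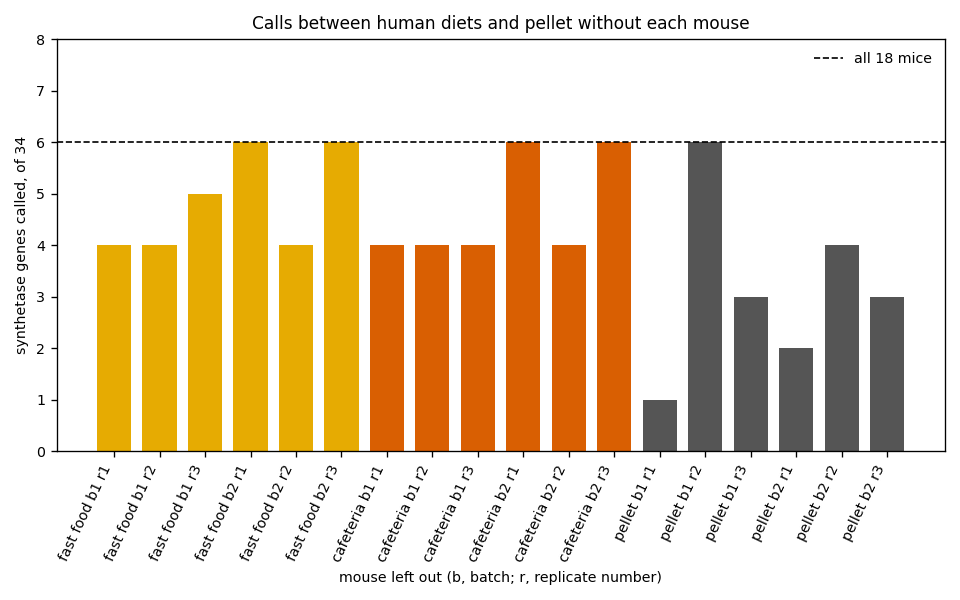
Number of the 34 synthetase genes called between human diets and pellet when each of the 18 mice is left out in turn, coloured by diet, with a dashed line at the 6 called with all mice. The lowest bar, 1, belongs to pellet mouse 1 of batch 1.

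Of the other 13 cytosolic genes, 3 were below an unadjusted p of 0.05, all lower under the human diets. The share of all genes below that level was 14.5%, and 8.04% were below it and lower. Over the 34 synthetase genes there were 11 (32.4%), with 10 lower (29.4%). The 3 among the other 13 were Kars, the lysyl enzyme of both compartments (-0.31, SE 0.11, adjusted p = 0.11), Aars, the alanyl enzyme (-0.30, SE 0.11, adjusted p = 0.14) and Qars, the glutaminyl enzyme (-0.24, SE 0.10, adjusted p = 0.24). A second kept probe set of Qars gave -0.30 and another 0.06, so the probe sets of this gene disagree. Differences of the remaining 10 lay between -0.19 and 0.13. Within the multi-synthetase complex 2 of 7 tested members were called (Lars and Mars1) and 6 of 7 were below 0, with a median of -0.24. Among the 12 cytosolic genes outside the complex 4 were called and 9 were below 0, with a median of -0.17. In this comparison 4.98% of all genes were called, and 2.82% were called lower. The largest differences among mitochondrial genes were -0.20 for Pars2, the prolyl enzyme (SE 0.06, adjusted p = 0.084), and 0.16 for Fars2, the phenylalanyl enzyme (SE 0.07, adjusted p = 0.31). Hars, the histidyl enzyme, differed by -0.47 in batch 1 and by 0.14 in batch 2, with an unadjusted interaction p of 0.00475, and its pooled difference of -0.16 was not called (adjusted p = 0.63).

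Averaged within each mouse, the 19 cytosolic genes showed the batch and the diet side by side. In batch 1 the mean log2 level was 6.27 to 6.62 in the 3 pellet mice, 6.06 to 6.19 on the cafeteria diet, 6.11 to 6.19 on the fast food diet and 6.17 to 6.44 on the chimpanzee diet. In batch 2 it was 6.04 to 6.12, 5.55 to 6.04, 5.67 to 6.01 and 5.65 to 6.04 in the same order. The pellet mice thus lay above the human diet mice within each batch, narrowly so in batch 2, while the chimpanzee diet mice overlapped pellet in batch 1. The mean of the 15 mitochondrial genes overlapped between pellet and the human diets in both batches, with 4.63 to 4.71 on pellet and 4.58 to 4.80 on the human diets in batch 1.

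**Figure D4:**
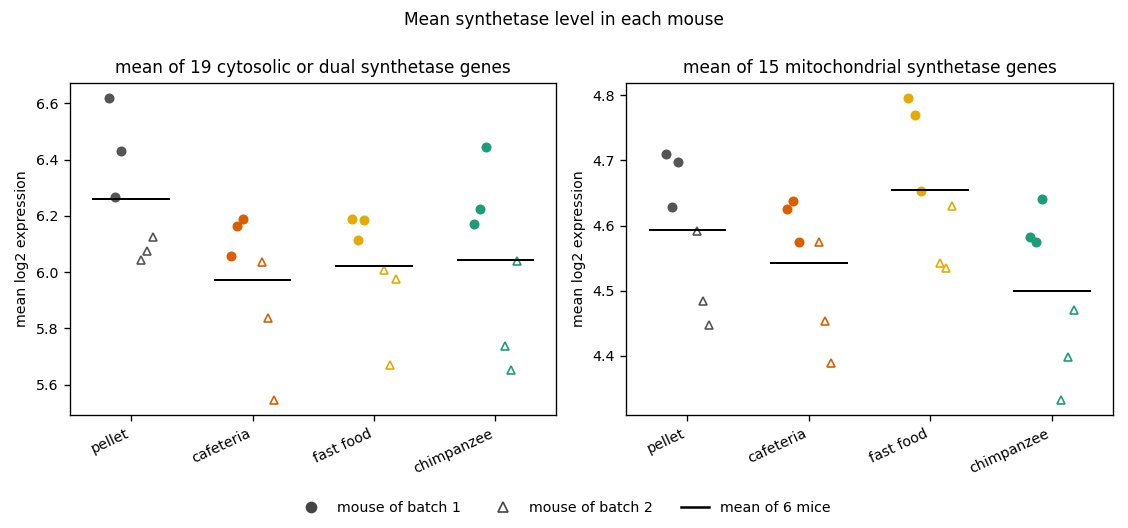
Mean log2 expression of the 19 cytosolic or dual genes (left) and of the 15 mitochondrial genes (right) in each mouse by diet, with filled circles for batch 1, open triangles for batch 2 and a line at the mean of 6 mice. On the left pellet mice span 6.04 to 6.62 and cafeteria mice 5.55 to 6.19; on the right fast food mice reach the highest value, 4.80.

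The chimpanzee diet was next compared with the pellet diet, a comparison that shares its 6 pellet mice with the one above. Of the 34 genes 2 were called, both lower on the chimpanzee diet, where 10.4% of all genes were called and 7.43% were called lower. Tars had a log2 difference of -0.90 (SE 0.16, 1.86-fold, adjusted p = 0.000659) and Lars one of -0.73 (SE 0.18, 1.66-fold, adjusted p = 0.0092). Both calls held with each of the 24 mice left out in turn, but neither held with the beta-actin difference as a covariate, where Tars gave -0.55 (adjusted p = 0.29) and Lars -0.72 (adjusted p = 0.23). That difference averaged 1.08 ± 0.15 (SD, n = 6) on the chimpanzee diet, above the pellet mean of 0.754. Under an unadjusted p of 0.05 there were 11 of 34 genes (32.4%), compared with 22.1% of all genes. Of the 34, 10 were lower (29.4%), compared with 15.2% of all genes, and the only one with a higher level was Sars, the seryl enzyme, at 0.19 (SE 0.09, adjusted p = 0.21). The values for the other genes called against the human diets were -0.43 for Cars (SE 0.16, adjusted p = 0.10), -0.33 for Nars (SE 0.13, adjusted p = 0.12), -0.24 for Gars (SE 0.11, adjusted p = 0.18) and -0.16 for Mars1 (SE 0.16, adjusted p = 0.66). Medians were -0.21 over the cytosolic and -0.05 over the mitochondrial genes, and -0.0044 over all genes. Second probe sets of Iars, the isoleucyl enzyme, and Cars2 were called when every probe set was tested by itself (-0.38, adjusted p = 0.0428, and -0.36, adjusted p = 0.0182), while the probe sets that represent these genes gave -0.16 and -0.21.

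Set directly against the chimpanzee diet, the human diets gave 0 called synthetase genes of 34 (limma), with 1.49% of all genes called. At an unadjusted p below 0.05 there were 6 of 34 genes (17.6%), compared with 14.3% of all genes. They were 2 cytosolic genes that were lower and 4 mitochondrial ones that were higher under the human diets. Sars had the smallest p (-0.32, SE 0.08, adjusted p = 0.063), and Mars1 followed among the cytosolic genes (-0.35, SE 0.13, adjusted p = 0.20). The mitochondrial genes were Fars2 (0.30, SE 0.09, adjusted p = 0.086), Hars2 (0.33, SE 0.12, adjusted p = 0.17), Yars2 (0.16, SE 0.06, adjusted p = 0.18) and Nars2 (0.32, SE 0.14, adjusted p = 0.27). For Tars the difference was -0.13 with a 95% interval from -0.46 to 0.20, and for Lars 0.08 with an interval from -0.26 to 0.42. Both intervals include 0, and a difference of either sign within them is not excluded. By the methods' procedure, an unadjusted test at a p of 0.01, 4 genes were counted (Ears2, Fars2, Sars and Yars2), with 6.11% of all genes. With every probe set tested by itself in limma, the kept ones of Ears2 gave 0.02 (adjusted p = 0.96) and 0.03 (adjusted p = 0.93). The count of Ears2 therefore rests on a probe set that the main filter drops, with a mean of 2.83 and 2 arrays above the filter level.

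The cafeteria and fast food diets were compared last. None of the 34 genes was called (0 by limma, 0 by the methods' procedure), and 0.00747% of all genes were. At an unadjusted p below 0.05 there were 5 of 34 (14.7%), compared with 5.11% of all genes, and 3 of the 5 were lower on the cafeteria diet. Ears2, the mitochondrial glutamyl enzyme, had -0.25 (SE 0.09, adjusted p = 0.86). Another kept probe set of Ears2 gave the opposite sign, 0.06 (SE 0.07), and its correlation with the first was -0.05. Tars had -0.34 with a 95% interval from -0.68 to -0.01 (adjusted p = 0.97). In sign, 13 of 15 mitochondrial genes were lower on the cafeteria diet, with a median of -0.12, where the median over all genes was -0.01 and 54.3% were lower.

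Several neighbouring gene lists were read in the same fits. The scaffold and charging partners comprised 12 genes, all tested. None of them was called between human diets and pellet (0 by limma), where 4.98% of all genes were. At an unadjusted p below 0.05 there were 2 of the 12, compared with 14.5% of all genes. On the chimpanzee diet 4 were called lower than on pellet, a comparison in which 7.43% of all genes were called lower. These were Mtfmt, which formylates mitochondrial initiator methionyl-tRNA (-0.34, adjusted p = 0.019), Dtd1, a deacylase that clears D-amino acids from tRNA (-0.39, adjusted p = 0.036), Eef1e1, a scaffold protein of the complex (-0.30, adjusted p = 0.039), and Aarsd1, an alanyl-tRNA editing protein (-0.36, adjusted p = 0.045). The other scaffold proteins Aimp1 and Aimp2 differed by -0.06 and 0.02 there. Of the factors that carry charged tRNA to the ribosome or move the ribosome along, 7 of 8 were tested. Between human diets and pellet 0 were called (limma), where 4.98% of all genes were. At an unadjusted p below 0.05 there were 0 as well, compared with 14.5% of all genes, and differences ran from -0.06 to 0.09. Eef2, which translocates the ribosome, was called higher on the chimpanzee diet than on pellet (0.27, adjusted p = 0.045), where 10.4% of all genes were called.

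Of 22 genes of the amino acid shortage response 17 were tested, and 2 were called between human diets and pellet, where 4.98% of all genes were called. Both were lower under the human diets. Atf5, a transcription factor related to ATF4, averaged 8.66 on pellet, 7.24 under human and 8.51 under chimpanzee feeding, a difference from pellet of -1.43 under the human diets (SE 0.16, adjusted p = 1.62e-05). Trib3, a pseudokinase induced by ATF4, averaged 4.37, 3.78 and 3.68 in the same order, with a difference of -0.58 (SE 0.11, adjusted p = 0.00238). Trib3 was thus lower than pellet under both the human and the chimpanzee diets (-0.69 for the latter, adjusted p = 0.000334), and Atf5 was called only against the human diets (-0.15 on the chimpanzee diet, adjusted p = 0.72). The difference of Atf5 between human and chimpanzee diets was itself called (-1.27, adjusted p = 0.00116). The mRNA of Atf4 differed by -0.14 (SE 0.07, adjusted p = 0.42) under the human diets and by -0.27 (SE 0.07, adjusted p = 0.02) under the chimpanzee diet. Asns, the asparagine synthetase, differed by -0.02 under the human diets (SE 0.07, adjusted p = 0.97). Ddit3, also an ATF4 target, was higher on the chimpanzee diet than on pellet (0.48, SE 0.14, adjusted p = 0.0278), and Ddit4, an inhibitor of mTORC1 signalling, was lower (-0.33, SE 0.10, adjusted p = 0.0387). Ddit4 averaged 3.58 on pellet and 3.25 on the chimpanzee diet, also close to the filter level. Between the chimpanzee and pellet diets 4 of the 17 were called, where 10.4% of all genes were. Fgf21, a liver hormone, was called lower under the human diets than on the chimpanzee diet (-0.64, SE 0.16, adjusted p = 0.0463). Its mean was 3.31 under the human diets and 3.40 on pellet, close to the filter level, and 3.95 on the chimpanzee diet. With Atf5, 2 of 17 were called between human and chimpanzee diets, where 1.49% of all genes were. The median of the list was -0.09 under the human diets, with 12 of 17 below 0.

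The liver was checked on its markers, and all 5 hepatocyte markers measured lay at 11.4 or more on average. Among the cell type marker lists, only that of Kupffer cells held genes called in any comparison (limma). The lists for hepatocytes, sinusoidal endothelium, stellate cells, cholangiocytes, lymphocytes, neutrophils and pancreatic acinar cells gave 0. They held 1 to 5 tested markers each, and at most 10.4% of all genes were called in a comparison. The mean of 6 Kupffer cell markers, the resident macrophages of the liver, was 5.70 to 6.42 across pellet mice, 4.96 to 6.51 across the human diets and 4.98 to 6.01 on the chimpanzee diet. Of these 6, 0 were called between human diets and pellet (limma), where 4.98% of all genes were. At an unadjusted p below 0.05 there were 2, both lower, compared with 14.5% of all genes. Against pellet 4 were called lower on the chimpanzee diet (Clec4f, Cd68, Csf1r and Vsig4, from -0.68 to -1.16), where 10.4% of all genes were called. Marco had the opposite sign there (0.37, adjusted p = 0.16). The part of the Kupffer cell markers in the synthetase results was not tested, and that of RNA quality was not tested beyond the covariate given with each comparison against pellet. The 90th percentile of an array averaged 6.51 (SD 0.07, n = 12) among batch 1 mice and 6.05 (SD 0.20, n = 12) among batch 2 mice. Without the 4 arrays of lowest percentile, which include a fast food, a cafeteria and 2 chimpanzee diet mice, 5 of the 6 calls against pellet held, and Gars gave -0.30 (adjusted p = 0.0526).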

How the data were processed

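Whole-liver RNA was hybridised to Affymetrix mouse arrays, 1 for each of 24 mice. The authors deposited 1 table of log2 values, made with rma of the Bioconductor package affy (background correction, quantile normalization and a summary per probe set). Not given in the sources used here are the affy version and whether brain arrays entered the normalization. Diet, batch and replicate number were taken from the sample labels. Littermates were spread over the diets, and litter, which the labels do not give, could not be fitted. Brain arrays were not analysed here.

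There were 45101 probe sets, including 64 controls. The filter on low values kept those exceeding 3.147, the median over the whole table, on 6 or more of the 24 arrays. A gene was its kept probe set of highest mean with 1 symbol in the platform annotation, which 34945 probe sets had, while 932 had several and 9160 none. Linear models were fitted with limma (version 3.58.1, R 4.3.3) on diet and batch and moderated by eBayes, two-sided, with Benjamini-Hochberg adjustment over 13384 genes at 0.05. The human diets were pooled and compared with pellet or with chimpanzee in fits of 18 mice, and other pairs were contrasts within 1 fit of 24 mice. Fits were tested on simulated data. An array has no read depth, and the 6 mice per diet limit the precision. Full values were given for genes called in at least 1 comparison, ranges and counts for the others. The gene list, its neighbouring lists and the tests were chosen with earlier results of these data known. Promoters came from a RefSeq table, and no coordinate was given for the array's probes, since the build of its annotation was not stated. Gene names come from the platform annotation, which can be old.

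The methods' procedure named in the text is an unmoderated two-way linear model with diet and batch, with the smallest p among the probe sets of a gene and a cutoff of 0.01 on the unadjusted p. Probe sets whose interaction of diet and batch had a p under 0.05 were dropped. The detection filter of the study was replaced by the filter above in at least 2 arrays.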

Additional observations from a re-analysis of the deposited data

Results flagged for a closer look

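In 9 of 136 sets of 6 mice (34 genes in 4 diets) the highest or lowest mouse stood apart from the rest by Dixon's criterion, which chance alone meets in about 1 set in 20. Cafeteria mouse 3 of batch 2 was set apart in 4 sets, high in Farsa (4.28, next 4.02) and Ears2 (3.81, next 3.61) and low in Kars (5.62, next 6.31) and Nars (7.34, next 7.86). Fast food mouse 2 of batch 2 was low in 4 sets, Iars (5.00, next 5.99), Kars (5.89, next 6.37), Tars (6.58, next 7.36) and Nars2 (3.64, next 4.29). The 90th percentiles of these arrays, 5.67 and 5.86, are among the 4 lowest. Pellet mouse 1 of batch 1 was high in Mars1 (7.14, next 6.45), and this is the mouse without which the count of called genes against pellet fell to 1. Its 90th percentile was 6.61 and its 3′ to 5′ beta-actin difference, 0.609, was the lowest of the 24 arrays; the part of either in its values was not tested.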

How the results depend on the processing

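Over the 18 to 24 single mice left out, the counts of called synthetase genes ran from 1 to 7 across the 4 diets, from 1 to 6 for human diets against pellet, from 0 to 2 for human diets against chimpanzee, from 2 to 4 for chimpanzee against pellet, and stayed at 0 for cafeteria against fast food. With batch left out the counts were 1 across diets, 2 for human against pellet and 1 for chimpanzee against pellet. Batch 1 alone gave 1 across diets and 2 for human against pellet. Batch 2 alone gave 0, 0 and 0 for these and for chimpanzee against pellet. Each batch held 3 mice of each diet, and a fit used those of the diets compared. The beta-actin covariate gave 1, 1 and 0. Across diets the count rose to 6 without the 4 arrays of lowest 90th percentile, 7 after cyclic loess, 7 after quantile normalization, 8 with the 90th percentile as a covariate, 6 by the methods' procedure and 10 with array weights. For human diets against chimpanzee the same settings gave 1, 1, 2, 2, 4 and 4, and the contrast within 24 mice gave 2. For chimpanzee against pellet the count was 4 after cyclic loess, 4 with every probe set as a feature, 5 by the methods' procedure, 4 with array weights and 4 with only the 12 mice compared. The causes of these changes were not tested, except that settings with fewer mice hold fewer samples.

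Of 16 settings other than leaving out a mouse, the human-against-pellet call held in 15 for Tars, 13 for Lars, 12 for Cars, 12 for Nars, 11 for Mars1 and 9 for Gars, and 0 differences changed sign. For chimpanzee against pellet it held in 14 for Tars and 13 for Lars. Replicate numbers 1 to 3 within a batch are shared across diets, but same-numbered mice did not deviate together (mean correlation -0.058 over 36 pairs, against -0.036 for other numbers, with 10 of the 36 above 0.1). With the replicate block 5 genes were called for human diets against pellet, where Gars was lost (adjusted p = 0.0592), and the other counts were 2 across diets, 2 for chimpanzee against pellet and 0 for the remaining comparisons.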
